A study of Mus musculus with 3 samples.

Results

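The cells described here are the tumour cells richest in transcripts of Pthlh, Dkk2 and Etv1. They were picked by rule: among barcodes with at least 300 genes, at most 15% mitochondrial UMIs (unique molecular identifiers, each standing for 1 captured transcript), at least 5000 UMIs, no Ptprc UMI and at least 5 UMIs of Krt8, Krt18 and Hmga2 together, the summed Pthlh, Dkk2 and Etv1 UMIs per 10000 were computed and the top 10% over all libraries was taken. That gave 1495 members of 14941 tumour-gated cells, out of 28522 cells past the gene and mitochondrial limits and 28943 barcodes. Because measured values of these 3 genes chose the members, their levels in members are a description and carry no test.

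LLC1 cells, a mouse Lewis lung carcinoma line, had been placed in the tibial marrow of 8-week-old mice and the tumours were taken on day 14, dissociated, sorted for live cells and profiled by droplet-based 3' RNA sequencing. The hosts were DMP1-Cre Mfn2-/- mice (Mfn2 encodes a mitochondrial outer-membrane fusion protein), DMP1-Cre Rhot1-/- mice (Rhot1 encodes the mitochondrial transport adaptor Miro1) and wild-type (WT) mice, whose Cre status the labels do not give. There was 1 library per genotype, each a mixture of tumours from 3 mice with no map from cells to mice, so no difference between genotypes could be tested. DMP1-Cre is used to delete genes in osteocytes and late osteoblasts, and the injected LLC1 cells do not carry the host deletion, so Mfn2 and Rhot1 transcripts in tumour cells do not check the host genotype. In members, Mfn2 stood at 19.5, 21.9 and 16.7 CPM (UMIs of a gene per 1000000 UMIs of the summed cells) and Rhot1 at 27.5, 28.9 and 24.9 in the Mfn2, Rhot1 and WT libraries.

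Pthlh encodes parathyroid hormone-related protein (PTHrP), a secreted hormone that acts on the receptor Pth1r of osteoblast-lineage cells, raises their output of RANKL and thereby osteoclast formation, and is best known in oncology for hypercalcaemia and bone-destroying metastases. Dkk2 encodes a secreted dickkopf protein that binds the Wnt co-receptors Lrp5 and Lrp6. Etv1 encodes an ETS-family transcription factor of the PEA3 group, to which Etv4 and Etv5 also belong, and its transcription and activity respond to receptor tyrosine kinase and ERK signalling.

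The proximal promoters are shown because the 3 genes define the cells and one of them encodes a factor of a family whose DNA-binding core is GGAA. Sequences run 5′ to 3′ on each gene's own strand, from 250 bases before to 50 bases after the RefSeq start (build GRCm38.p6), and capitals mark GGAA or its reverse complement TTCC.
Pthlh (ENSMUSG00000048776), chr6:147263964-147264263, minus strand: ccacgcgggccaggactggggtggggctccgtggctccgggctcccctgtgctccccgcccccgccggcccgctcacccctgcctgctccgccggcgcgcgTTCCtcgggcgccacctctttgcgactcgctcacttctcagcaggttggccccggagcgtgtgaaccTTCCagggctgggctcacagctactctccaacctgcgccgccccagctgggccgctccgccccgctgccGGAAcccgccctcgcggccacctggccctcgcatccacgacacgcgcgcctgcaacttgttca
Dkk2 (ENSMUSG00000028031), chr3:132085042-132085341, plus strand: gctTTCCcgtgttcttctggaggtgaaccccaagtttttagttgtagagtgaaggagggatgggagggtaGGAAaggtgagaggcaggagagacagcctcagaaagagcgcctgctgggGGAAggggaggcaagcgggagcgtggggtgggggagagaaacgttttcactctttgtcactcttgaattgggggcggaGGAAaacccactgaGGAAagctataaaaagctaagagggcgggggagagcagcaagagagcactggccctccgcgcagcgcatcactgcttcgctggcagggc
Etv1 (ENSMUSG00000004151), chr12:38779832-38780131, plus strand, the first of the listed starts: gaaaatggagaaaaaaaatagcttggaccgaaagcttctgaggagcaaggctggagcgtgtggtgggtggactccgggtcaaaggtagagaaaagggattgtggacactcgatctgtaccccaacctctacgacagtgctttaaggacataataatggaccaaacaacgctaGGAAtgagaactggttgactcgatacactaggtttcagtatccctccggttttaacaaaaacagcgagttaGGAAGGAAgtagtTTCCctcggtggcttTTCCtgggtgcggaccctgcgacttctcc
GGAA was found 3 times in the Pthlh window, 5 times in the Dkk2 window and 5 times in the Etv1 window shown, both strands counted. The window at the second listed Etv1 start, which is not shown, held 1 match. GGAA is a short string that 95.9% of 27025 RefSeq promoter windows of the same length held, with a median of 3 matches. The longer string CCGGAA, which contains it, occurred 1 time in the Pthlh window and in neither of the others, against 15.2% of all windows. Neither TGANTCA, the AP-1 element (held by 7.93% of windows), nor TGACGTCA, the cAMP response element (1.88%), was in any of the 3 windows shown. These matches describe letters only.

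The 3 libraries held 118123705, 118223251 and 112088653 UMIs in 10016, 9534 and 9393 barcodes (Mfn2, Rhot1, WT). Members held 9055363, 10372101 and 5270186 of them. Barcodes shared between libraries numbered 35, 20 and 21 per pair, of which 1 was a member in both. Members had a median of 15356 UMIs and 4092 genes, against 16891 UMIs and 4260 genes in other tumour cells, and 1.66% mitochondrial UMIs against 1.25%. Scrublet, a caller of likely doublets, marked 20 members and 218 other tumour cells, which were kept. The tumour markers were Krt8, Krt18 and Hmga2, of which the gate required at least 5 UMIs together, so their summed presence was set by the choice of cells. They summed to 1496, 1263 and 1257 CPM in members, against 1348, 1247 and 1172 in other tumour cells. The sums hide that Krt18 by itself was lower in members than in other tumour cells in each library. The 10 macrophage and monocyte markers summed to 267, 303 and 400 CPM in members, against 311, 349 and 310 in other tumour cells and 13037 to 13517 in cells outside the gate, and none of the 8 tested was called. Of 8 osteoblast and osteocyte markers, Bglap, Ibsp, Sp7, Alpl, Dmp1 and Sost stayed at or below 0.221 CPM in members. The other two were present: Runx2 at 30.4, 31.9 and 28.1 CPM in members, against 28.1, 26.1 and 26.0 in other tumour cells, and Phex at 9.83, 7.81 and 10.2 in members, against 8.35, 6.997 and 5.58, and neither was called.

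The 3 genes were not equal contributors to the choice. In members, Dkk2 stood at 468, 603 and 468 CPM in the Mfn2, Rhot1 and WT libraries, against 112, 126 and 78.7 in other tumour cells. Etv1 stood at 454, 403 and 447 in members, against 142, 125 and 134 in other tumour cells. Pthlh stood at 253, 227 and 240 in members, against 70.9, 65.0 and 52.9 in other tumour cells. So the member values of each gene lay close together across hosts, apart from Dkk2 in the Rhot1 library. Of the score UMIs in members, 43.9% were Dkk2, 36.0% Etv1 and 20.05% Pthlh. All 3 genes were found in 86.1% of members, and Dkk2 gave the most score UMIs in 51.2% of members, Etv1 in 34.0%, Pthlh in 7.22%, with ties in the rest. Dkk2 led in 41.0% of Mfn2 members and 63.3% of Rhot1 members, against 44.3% of WT members.

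The scores of members and of other tumour cells met without a gap at the threshold. The lowest member score was 8.8463 per 10000 and the highest score outside was 8.8443. Within 1 unit of that threshold lay 409 members and 494 other tumour cells. The median score was 11.04 in members, with a maximum of 36.5, and 2.61 in other tumour cells, of which 1209 scored 0.

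Outside the members the 3 transcripts were also widespread in tumour cells. With every cell thinned to 5000 UMIs, Pthlh was found in 31.6%, 30.7% and 23.6% of tumour-gated cells (Mfn2, Rhot1, WT), Dkk2 in 41.3%, 44.3% and 26.8%, and Etv1 in 50.3%, 47.7% and 48.0%. Before thinning the shares were 61.6%, 60.2% and 50.7% for Pthlh, 65.1%, 67.5% and 45.7% for Dkk2, and 79.6%, 79.4% and 79.5% for Etv1. In Ptprc-positive cells without keratin or Hmga2 UMIs, which should lack Pthlh and Dkk2, the thinned shares were 2.46%, 2.46% and 2.26% for Pthlh and 4.93%, 8.31% and 4.01% for Dkk2. Those cells had median depths of 6200, 6410 and 6790 UMIs, against 16088, 16738 and 17596 in tumour-gated cells. Etv1 was found in 27.1%, 25.2% and 15.04% of the Ptprc-positive cells, so it is the least tumour-restricted of the 3. The tumour shares of all 3 genes lay above these levels in each library.

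Dkk2 and Etv1 were found more often in cells with a Pthlh UMI than in cells without. After thinning, all 3 were found together in 51.0%, 47.8% and 37.2% of members (Mfn2, Rhot1, WT), against 6.41%, 6.91% and 3.43% of other tumour cells, a difference that the choice of members sets. Over all tumour-gated cells, which no gene chose among the 3, Dkk2 was found in 54.1%, 59.3% and 42.3% of cells with a Pthlh UMI, against 35.4%, 37.6% and 22.1% of cells without. Etv1 was found in 60.6%, 58.7% and 55.0% of cells with a Pthlh UMI, against 45.5%, 42.8% and 45.8% of cells without. The gap was smallest for Etv1 in the WT library.

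Whether the 3 genes keep company was examined by choosing cells with a pair of them and reading the remaining one. That gene had no part in the choice of cells, but the 3 were grouped with earlier results of these data known. The p-values below are therefore no independent support for the grouping. Each gene was higher in the cells chosen by the other pair, in all 3 libraries. Pthlh stood at 200.1, 184 and 162 CPM in cells chosen by Dkk2 and Etv1 (Mfn2, Rhot1, WT), against 77.3, 70.1 and 58.0 in the remaining tumour cells, a log2 fold of 1.41 (SE 0.046, adjusted p = 2.4e-08). Dkk2 stood at 296, 411 and 246 in cells chosen by Pthlh and Etv1, against 129.5, 157 and 92.0, a log2 fold of 1.34 (SE 0.054, adjusted p = 8.0e-06). Etv1 stood at 312, 294 and 288 in cells chosen by Pthlh and Dkk2, against 158, 136 and 146, a log2 fold of 1.03 (SE 0.043, adjusted p = 1.4e-08). For each of the 3 genes, every library sum of the chosen cells lay above every library sum of the remaining cells. These are edgeR quasi-likelihood tests on UMIs summed per library and class, with the library as a block and Benjamini-Hochberg adjustment over all genes tested, and by size of fold the genes ranked 26 of 9711, 30 of 9689 and 57 of 9674. The p-values rest on 3 libraries, whose member and other cells come from the same mice. Choosing on cells thinned to 5000 UMIs gave log2 folds of 1.20, 1.01 and 0.84 for Pthlh, Dkk2 and Etv1, and among cells with no UMI of 5 cycle genes they were 1.24, 1.21 and 0.82.

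**Figure D1:**
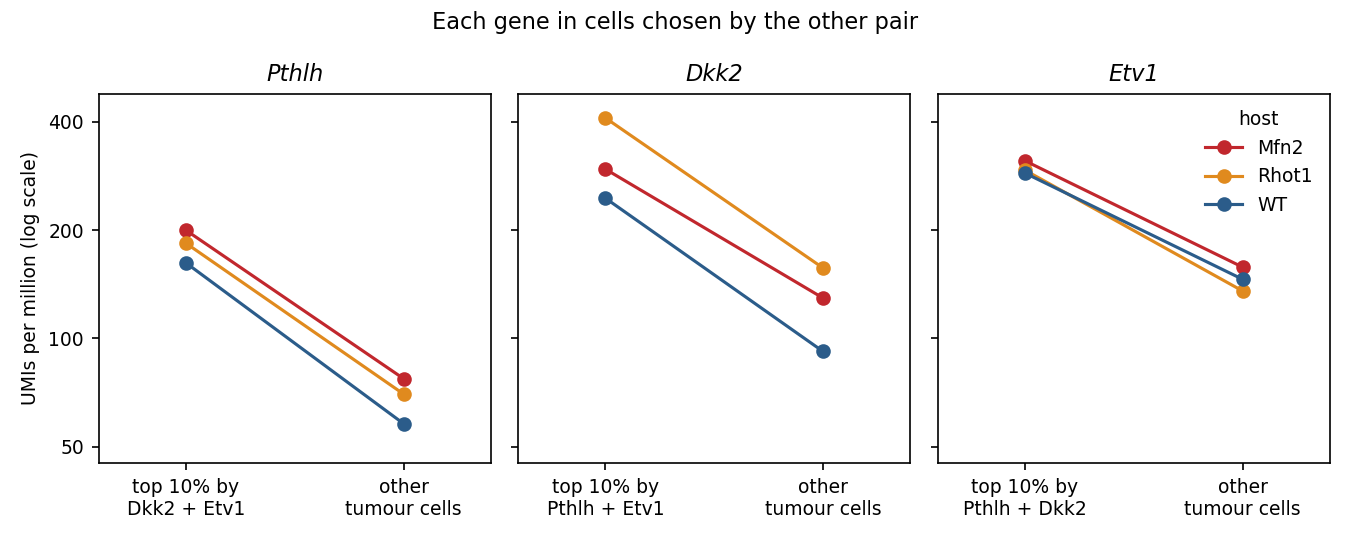
CPM (log axis) of Pthlh, Dkk2 and Etv1 in cells chosen by the other pair of genes (left in each panel) and in the remaining tumour cells (right), 1 line per library. Every line falls to the right, with chosen cells at 162 to 200.1 for Pthlh against 58.0 to 77.3, and the Rhot1 library is highest for Dkk2 at 411.

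Members were then set against the remaining tumour cells in the same fit, over all genes tested. A gene was called at an adjusted p under 0.05 and a log2 fold of at least 0.5. Of 9693 genes with a mean of at least 5 CPM, 564 were higher in members (5.82%) and 358 lower (3.69%), and 44.4% passed the adjusted p at any fold. These counts include genes that chose the cells: Pthlh, Dkk2 and Etv1 among the higher, and 1 of Krt8, Krt18 and Hmga2 among the lower.

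Prxl2a, a peroxiredoxin-like redox protein, had the largest fold of the 14 genes named above at a mean of at least 50 CPM. Some scarcer list genes given below had larger folds. It stood at 721, 595 and 260 CPM in members (Mfn2, Rhot1, WT), against 289, 196 and 68.8 in other tumour cells, a log2 fold of 1.60 (SE 0.083, edgeR adjusted p = 1.7e-07). Members of the WT library lay below the other tumour cells of the Mfn2 library, so this gene separated members within each library but not across libraries. Crabp1, which binds retinoic acid inside cells, stood at 87.7, 73.3 and 93.0 in members, against 32.3, 25.6 and 32.7, a log2 fold of 1.49 (SE 0.054, adjusted p = 9.8e-09). Ank, a membrane protein that raises extracellular pyrophosphate and restrains mineralisation, stood at 410.1, 339 and 465 in members, against 165, 137 and 160.1, a log2 fold of 1.39 (SE 0.051, adjusted p = 9.8e-09). For Crabp1 and Ank every member value lay above every other value.

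Among matrix genes, Dcn, Lum and Mmp3 also differed between hosts. Decorin (Dcn), a small leucine-rich proteoglycan, stood at 617, 641 and 1799 CPM in members, against 310.1, 227 and 626 in other tumour cells, a log2 fold of 1.34 (edgeR adjusted p = 5.1e-07). Lumican (Lum), of the same protein family, stood at 57.0, 94.7 and 335 in members, against 31.1, 39.1 and 153 (log2 fold 1.11). The stromelysin Mmp3 stood at 80.1, 92.8 and 284 in members, against 46.9, 41.0 and 93.3 (log2 fold 1.21). In each of these 3 genes the WT library was highest in both classes. Dermatopontin (Dpt), a collagen-binding matrix protein, had a log2 fold of 1.24, thrombospondin 2 (Thbs2) 1.15, versican (Vcan) 1.11 and the collagen cross-linking enzyme Loxl2 1.10. Vcan was the steadiest of these, at 211, 228 and 209 in members, against 107, 100.3 and 91.9. The remaining genes above were Rcan1 (1.26), an inhibitor of calcineurin, Gap43 (1.22), a growth-cone protein, the extracellular chaperone Clu (1.16) and Sat1 (1.16), the acetyltransferase that starts polyamine breakdown.

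The 10 genes furthest below were led by the linker histone H1f5, at 102, 124 and 88.6 CPM in members, against 224, 336 and 276 in other tumour cells, a log2 fold of -1.39 (SE 0.071, edgeR adjusted p = 1.5e-07). Pclaf, a PCNA-binding factor of DNA replication, stood at 54.7, 72.6 and 59.8, against 129, 173 and 172 (log2 fold -1.32). Spc24 of the kinetochore (-1.20), the histones H2ac8 (-1.17) and H2ac24 (-1.03), survivin (Birc5, -0.97), the ribonucleotide reductase subunit Rrm2 (-0.93) and the mitotic activator Cdc20 (-0.88) followed. The H2A histone genes are near-identical copies, so their separate counts are uncertain. Not of the cycle were Tmem176b (-0.94), a membrane protein, and Phgdh (-0.93), the first enzyme of serine synthesis. Phgdh stood at 96.7, 99.2 and 108 in members, against 170, 185 and 233.

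**Figure D2:**
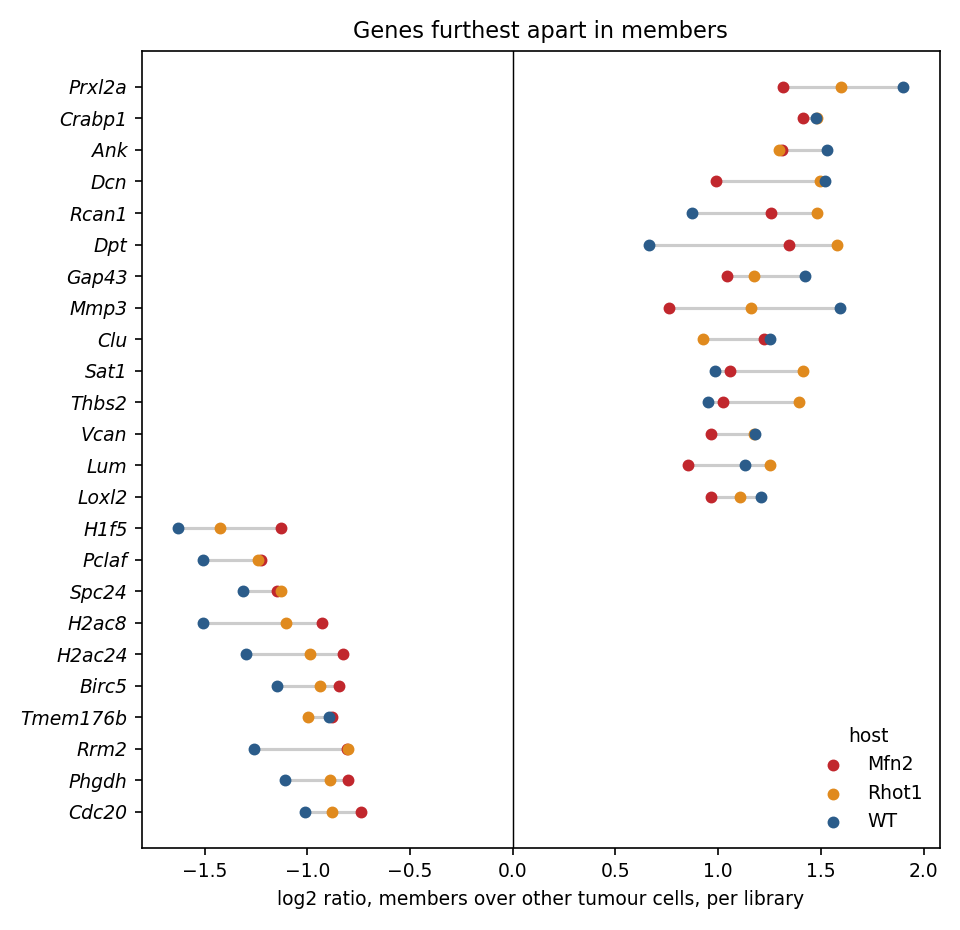
Log2 ratio of CPM, members over other tumour cells, in each library (points, with a pseudocount of 1 CPM) for the 14 named genes furthest above and the 10 furthest below. All 3 libraries lie on the same side of 0 for each gene shown, and the libraries spread most for Dpt and Mmp3.

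Members were less often in cycle, and this moved with the calls. After thinning, 44.5% of members had no UMI of Mki67, Top2a, Cenpf, Pclaf and Rrm2, against 28.9% of other tumour cells. Of 49 G2M-phase genes tested, 36 were lower in members and 0 higher, with a median log2 fold of -0.64, and of 38 S-phase genes 15 were lower and 0 higher, with a median of -0.36. The median over all genes tested was 0.01, with 5.82% higher and 3.69% lower. Among cells with none of the cycle UMIs, 352 genes were higher and 119 lower, the G2M median was -0.29 with 6 of 32 lower, and the S-phase median was -0.04 with 0 of 33 lower. In those cells Prxl2a (1.396), Crabp1 (1.53), Ank (1.19), Gap43 (1.08) and Rcan1 (1.02) kept log2 folds above 1, Lum came to 0.34, and H2ac24 to 0.16 (edgeR adjusted p = 0.17). The gene counts and lists below are those of all cells unless the text says otherwise.

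Of 14 regulators and pathway genes of the PTHrP signal tested, 1 was higher and 0 lower, with a median log2 fold of 0.12 (over all genes, 5.82% were higher and 3.69% lower). It was Gli2, a transcriptional effector of hedgehog signalling known to raise Pthlh transcription in bone-metastatic cells, at 6.85, 8.29 and 7.40 CPM in members (Mfn2, Rhot1, WT), against 4.84, 4.76 and 4.61, a log2 fold of 0.67 (SE 0.13, edgeR adjusted p = 0.0017), and it was not called among cells without cycle UMIs. The TGF-beta receptor Tgfbr1 had a log2 fold of 0.45 and Tgfbr2 of 0.26, short of the fold required, and Runx2 had 0.18. Smad2, Smad3, Smad4, Furin (a protease that processes pro-PTHrP) and Gnas (the stimulatory G protein alpha subunit) had values between -0.01 and 0.12. The receptor gene Pth1r was too scarce to test, with 6, 7 and 3 UMIs in all members of a library, and Gli1, a hedgehog target, had 22, 43 and 20.

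Of 18 genes for other signals that tumours send to bone, 7 were higher and 1 lower, with a median log2 fold of 0.34. The shares over all genes were 5.82% higher and 3.69% lower. Sema3a, a semaphorin that acts on osteoblasts, osteoclasts and nerve endings, stood at 146, 135 and 173 CPM in members, against 66.2, 63.9 and 95.9 in other tumour cells (log2 fold 1.03, edgeR adjusted p = 2.3e-07). The membrane collagenase Mmp14 stood at 380, 356 and 409, against 225, 199 and 184 (log2 fold 0.91). The BMP antagonist Grem1 stood at 104, 103 and 107, against 64.3, 58.2 and 60.6 (log2 fold 0.78), and osteopontin (Spp1) at 1701, 1511 and 2842, against 1098, 1123 and 1947 (log2 fold 0.54). Sema3a, Mmp14 and Grem1 were higher in every member sum than in every other sum. The IL-6 family cytokines Lif (1.06) and Il11 (0.75) were also higher, and Il11 was lowest in the WT library, at 22.5, 33.1 and 8.54 in members, against 13.4, 19.7 and 5.05. Csf1, the growth factor of macrophages and osteoclast precursors, was lower, at 33.4, 30.5 and 48.2 in members, against 47.3, 48.1 and 70.8 (log2 fold -0.57), a call lost in 5 alternatives. Mmp13, a collagenase, had a log2 fold of 1.77 (adjusted p = 0.010) that rested on the WT library alone, at 0.663, 1.25 and 50.9 in members, against 1.02, 2.05 and 7.13, and the call was lost in 5 alternatives, DESeq2 among them. Without the WT library it was too scarce to test. RANKL (Tnfsf11), osteoprotegerin (Tnfrsf11b) and Dkk1 had 0 UMIs in members of any library, and Il6 had 0, 1 and 1.

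Growth factor ligands and brakes of the ERK pathway, which lies upstream of Etv1 in several cell types, were partly higher. Of 12 EGFR and FGFR family ligands and receptors and their relatives tested, 6 were higher and 0 lower, with a median log2 fold of 0.36. The shares over all genes were 5.82% higher and 3.69% lower. Hgf, the ligand of Met, stood at 51.9, 69.1 and 50.1 CPM in members, against 18.7, 18.8 and 12.1 (log2 fold 1.78, edgeR adjusted p = 1.7e-07). Fgf7, the keratinocyte growth factor, stood at 34.0, 27.0 and 41.9, against 10.8, 6.84 and 15.1 (log2 fold 1.70). The EGFR ligands Ereg (0.99), Btc (0.73) and Areg (0.51) and the receptor-like Fgfrl1 (0.60) were higher too. The receptors themselves were not called: Fgfr1 had a log2 fold of 0.16, Met 0.09, Erbb2 0.21 and Erbb3 -0.11. Of 17 ERK output genes, 4 were higher and 0 lower, with a median of 0.20. All 4 are feedback inhibitors: Spry4 (0.98), Dusp6 (0.79), Spred1 (0.60) and Spry2 (0.50, with a log2 ratio of 0.09 in the WT library). Members of the same gene families that were not called were Spred3 (0.29), Dusp5 (0.13), Spred2 (0.10) and Dusp4 (0.03). Spry4 stood at 58.7, 46.7 and 53.5 in members, against 28.4, 26.8 and 24.8. Among the cells without cycle UMIs, 3 of 11 ligand and receptor genes and 3 of 17 ERK output genes were higher. There, 352 of all 9577 genes tested were higher.

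Of 14 other ETS factors tested with edgeR, 0 were called (over all genes, 5.82% were higher and 3.69% lower), with a median log2 fold of -0.003, while 4 had an unadjusted p under 0.05 and 3 passed the adjusted p short of the fold (Elk3, Elk4 and Elf4). The PEA3 relatives Etv4 and Etv5 had log2 folds of -0.04 and -0.12, Elk3, the highest, 0.36, and Elf4, the lowest, -0.37. Etv4 stood at 41.5, 37.3 and 32.8 CPM in members, against 40.03, 40.1 and 34.9, and Etv5 was scarce, at 5.69 to 8.87 in members.

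Of the Wnt ligands, receptors and inhibitors, 1 of 10 tested was higher and 0 lower, with a median log2 fold of 0.29. Over all genes, 5.82% were higher and 3.69% lower. Wnt5a, the ligand that acts mostly apart from beta-catenin, stood at 38.5, 46.9 and 44.8 CPM in members, against 26.6, 28.5 and 22.8 (log2 fold 0.73, edgeR adjusted p = 2.8e-05). The co-receptors bound by Dkk2 had log2 folds of 0.46 (Lrp5) and 0.26 (Lrp6), and Kremen1, a further dickkopf receptor, 0.36, all short of the fold required. Of 12 beta-catenin pathway genes and targets, 0 were called, with a median of 0.20, though 10 passed the adjusted p alone. The transcription factors Tcf7l1 (0.48) and Tcf7l2 (0.48) stood highest, and the targets Ccnd1 (0.20) and Myc (-0.24) lay on opposite sides. Axin2, the usual reporter of the pathway, was too scarce to test, with 5, 11 and 5 UMIs in all members of a library.

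Of 22 mesenchymal genes tested, 8 were higher and 0 lower (5.82% and 3.69% over all genes), with a median log2 fold of 0.41. The 8 were Dcn, Mmp3, Lum, Col3a1 (0.87), Col5a1 (0.71), Mmp2 (0.65), Zeb1 (0.59) and Twist1 (0.57). The transcription factors Zeb1 and Twist1, which drive epithelial-mesenchymal transition, were steady across hosts, Zeb1 at 95.7, 106 and 100.2 CPM in members, against 65.2, 66.7 and 68.7. Vim, already abundant, had 0.35, Snai1 0.17 and Col6a3 -0.05. The 9 fibroblast and stroma markers summed to 1353, 1477 and 3404 in members, against 710, 643 and 1511, and all 4 tested (Lum, Dcn, Col3a1 and Pdgfra) were higher. Pdgfra, which encodes a receptor of platelet-derived growth factors, stood at 66.8, 56.5 and 59.4 in members, against 27.5, 22.9 and 32.8. The collagen genes Col1a1 and Col1a2 stayed at or below 0.569 in members and Cxcl12 was at 0. The part of stromal RNA in these results was not tested. Taking out the cells richest in Lum, Dcn and Mmp3 left 6 of 22 mesenchymal genes higher, with a median of 0.27. There Dcn had 1.23, Mmp3 0.41 and Lum 0.27, and 553 genes were higher and 344 lower in all.

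Of 11 polyamine genes tested, 4 were higher and 1 lower (5.82% and 3.69% over all genes), with a median log2 fold of 0.37. The 4 were Odc1, Sat1, Smox and Prxl2a. Prxl2a stood on the list although it is known as a redox protein. The list was written with earlier results of these data known, so the count with Prxl2a is a description only. Odc1, the rate-limiting enzyme of synthesis, stood at 5134, 4699 and 3215 CPM in members, against 2953, 2661 and 1703 (log2 fold 0.85, edgeR adjusted p = 9.8e-09). The breakdown enzymes Sat1 and Smox had 1.16 and 1.04. Srm, which makes spermidine, was lower at 200.9, 183 and 149.9, against 274, 274 and 249 (log2 fold -0.58, a call lost in 3 alternatives), while Sms, which makes spermine, had 0.37. In the cells without cycle UMIs, 4 were still higher, Prxl2a among them, and 0 lower.

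Inflammatory genes showed 5 of 13 higher and 0 lower (median log2 fold 0.21). The alarmin Il33 had the largest fold of any list gene, 2.04 (SE 0.12, edgeR adjusted p = 2.9e-07), at 25.3, 14.1 and 181 CPM in members, against 8.30, 3.62 and 36.5. The monocyte chemokines Ccl7 (1.03) and Ccl2 (0.70), the neutrophil chemokine Cxcl2 (0.80) and the survival factor Birc3 (0.50) were higher, while Nfkbia (-0.06) and Nfkb1 (-0.002) were not called. Interferon-stimulated genes had 0 of 17 higher and 2 lower (median -0.14), Gbp2 (-0.75) and Cxcl10 (-1.18), and Cxcl10 came to -0.77 without the Rhot1 library and was not called. The chondrocyte factors Sox5 and Sox9 had log2 folds of 1.47 and 0.54, and the call of Sox9 was lost in 7 alternatives, among them without the WT library (0.36). Sox5 stood at 11.6, 11.4 and 13.3 in members, against 4.68, 4.20 and 4.05. The cartilage matrix genes Acan, Col2a1, Col10a1 and Comp were too scarce to test. Acan was at 0 in members, while Col2a1 had 8, 10 and 3 UMIs there. In CPM, Col2a1 was at 0.883, 0.964 and 0.569 in members, against 0.450, 0.463 and 0.142 in other tumour cells. In the remaining lists, glycolysis had 1 of 17 higher (Pfkfb3, 0.89). Hypoxia had 1 of 18 higher (Ndrg1, 0.52, lost in 8 alternatives and at 0.41 without the WT library and 0.47 without the Rhot1 library). YAP and TEAD targets had 1 higher (Nt5e, 1.38) and 1 lower of 13. The unfolded protein response had 1 higher and 1 lower of 17, and p53 targets 1 higher and 1 lower of 11. AP-1 and dissociation stress had 3 higher and 1 lower of 21, and 0 called of 22 in cells without cycle UMIs. The calls of Btg2, Hsp90aa1, Dusp1 and Fosl2 there were lost in 10, 7, 5 and 4 alternatives. MHC class I presentation had 0 higher and 1 lower of 17 (Psmb10, -0.51, lost in 7 alternatives and at -0.49 without the WT or without the Rhot1 library). Over all genes, 5.82% were higher and 3.69% lower, so lists with 1 gene called in a direction are not told apart from that share. Only 1 epithelial gene was abundant enough to test.

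**Figure D3:**
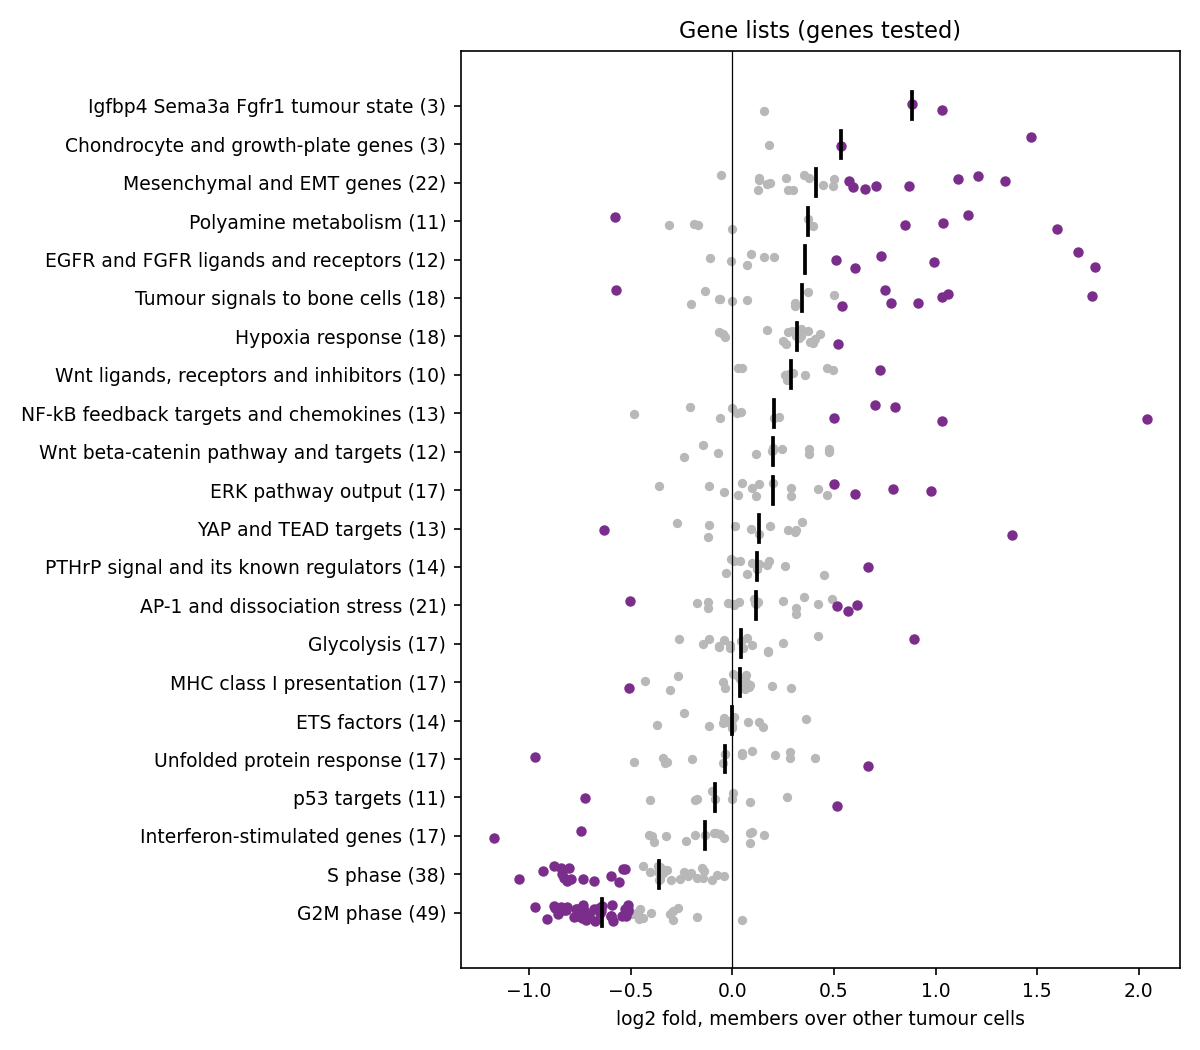
Log2 fold, members over other tumour cells, of every tested gene in 22 gene lists, with the number tested in brackets. Purple points were called, grey points were not, and the black bar is the list's median. Cycle genes lie mostly left of 0, with a G2M median of -0.64, and 8 of 22 mesenchymal, 7 of 18 bone-signal and 6 of 12 growth factor genes were called to the right.

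Clustering the tumour-gated cells without the 3 genes placed members unevenly. Of 14 clusters, cluster 1, with leading genes that include Hgf, Ptk2b, Gap43, Prxl2a and Rcan1, held 40.5% of all members, and 21.2% of its own cells were members. Cluster 6, led by Fbn1, Hgf, Dpt and C1qtnf1, had the largest share of members, 37.5% of 675 cells. Clusters 2, 3, 10 and 12 together held 13 members in 4307 cells. The cycling clusters differed from each other: 6.70% of cluster 0 (histone genes) and 7.97% of cluster 4 (Cdkn3, Kif20a, Cdc20) were members, but 0.134% of cluster 2 (Pclaf, Ccna2, Tinagl1). Cluster 3, led by Tmem176a, Ifi203, Sned1 and C3, had 0.558%. Clusters 9 and 11, led by genes of myeloid cells and neutrophils, held 16 and 10 members. With clusters 2, 3, 10 and 12 left out, 417 genes were higher and 277 lower, Prxl2a had a log2 fold of 1.12, and Tmem176b, which leads cluster 3, had -0.05 (edgeR adjusted p = 0.54).

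**Figure D4:**
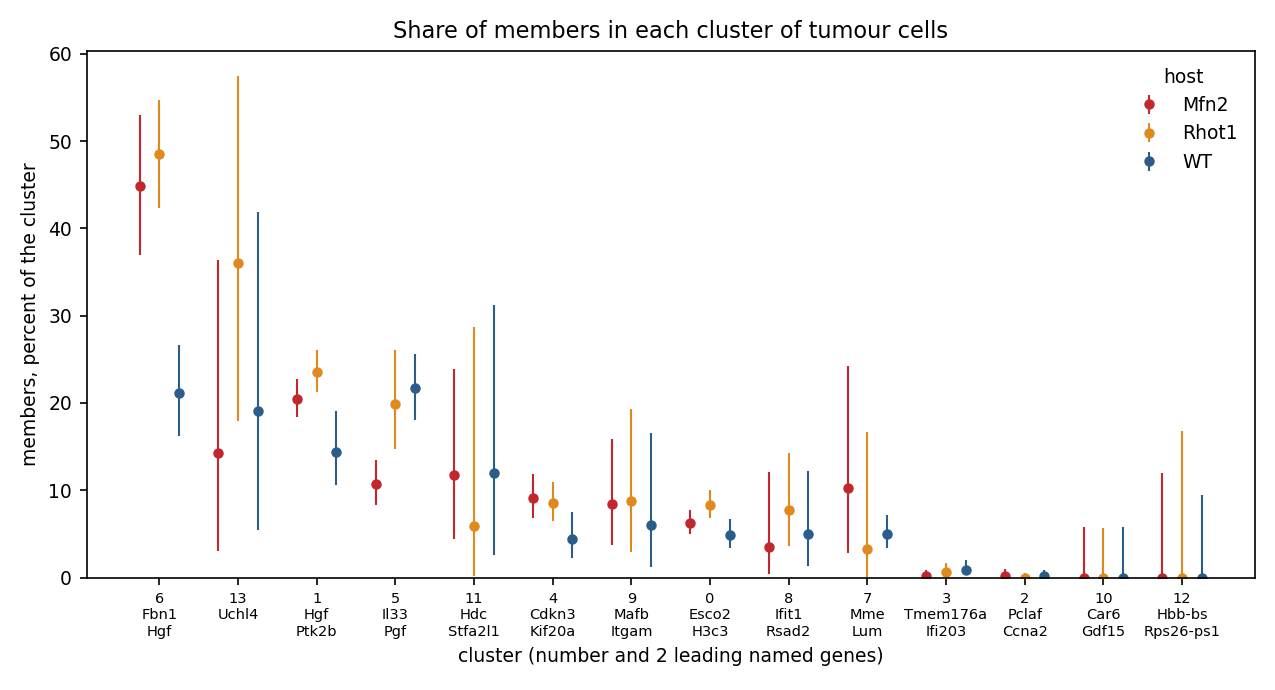
Members as a percentage of each cluster's cells in the Mfn2, Rhot1 and WT libraries, with exact 95% intervals for counting error, clusters ordered by their overall share. Cluster 6 reaches 44.9% and 48.5% in the Mfn2 and Rhot1 libraries against 21.1% in WT, and clusters 2, 3, 10 and 12 lie near 0.

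Members overlapped with other gene-defined ends of the tumour population. Of members, 22.01% were also in the top 10% for Igfbp4, Sema3a and Fgfr1, against 8.67% of other tumour cells. As both pooled sets hold 1495 cells, the pooled share is the same either way. By library it was 19.5%, 16.1% and 39.5% of members (Mfn2, Rhot1, WT), against 5%, 5.08% and 17.2% of other tumour cells. In the other direction, 31.1%, 30.6% and 14.5% of the top Igfbp4, Sema3a and Fgfr1 cells were members. For Lum, Dcn and Mmp3 the overlap was 21.5%, against 8.73% of other tumour cells. It was 13.2%, 13.9% and 53.4% of members in the Mfn2, Rhot1 and WT libraries, against 5.19%, 4.06% and 18.3% of other tumour cells. For the mitotic genes Mki67, Top2a and Cenpf it was 6.96%, against 10.3%.

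Of the genes whose level over tumour cells most resembled each of the 3, Prxl2a was among the 5 nearest to all of them. Pearson's r of log-normalised values was averaged over the 3 libraries and 9228 genes were ranked, as a description of cells that share library and depth. Prxl2a had rank 1 for Pthlh (mean r 0.39), rank 2 for Etv1 (0.36) and rank 3 for Dkk2 (0.42). Ank had rank 1 for Etv1 (0.38) and rank 4 for Pthlh (0.34). Odc1 had rank 1 for Dkk2 (0.45) and rank 3 for Pthlh (0.35). For Pthlh, Dkk2 itself had rank 2 (0.38) and Etv1 rank 5 (0.31), whereas for Dkk2, Etv1 had rank 18 (0.30). Gap43, Tpm1 and Rbp4 completed the list for Dkk2 and Igfbp4, Col18a1 and Col3a1 that for Etv1.

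Members led by Dkk2 and members led by Etv1 differed in few other genes that passed the test. There were 765 Dkk2-led members (229, 405 and 131 in the Mfn2, Rhot1 and WT libraries) and 508 Etv1-led members (235, 158 and 115). Of 9764 genes, 8 were higher in Dkk2-led members (0.0819%) and 8 lower (0.0819%), Dkk2 and Etv1 themselves among them. Leaving out a library gave more: 24 higher and 29 lower without WT, 13 and 16 without Mfn2, and 17 and 13 without Rhot1. Tnfrsf12a, the receptor of the cytokine TWEAK, stood at 90.2, 85.3 and 88.5 CPM in Dkk2-led members, against 52.6, 48.8 and 51.1 in Etv1-led members (log2 fold 0.79, SE 0.090, edgeR adjusted p = 1.4e-05). The metallothioneins Mt1 and Mt2, which bind zinc and copper, were lower, Mt1 at 639.6, 443 and 666, against 986, 681 and 927 (log2 fold -0.58, adjusted p = 4.5e-08). Adm, the hypoxia-responsive peptide adrenomedullin, was lower at 98.7, 81.6 and 147, against 131, 120.1 and 219 (log2 fold -0.51). Pthlh did not pass between them, with 222, 200.01 and 209 in Dkk2-led members, against 220.2, 203 and 187 (log2 fold 0.04, SE 0.062).

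The share of members was larger in the libraries of both mutant hosts than in the WT library. They made up 10.4% of 5379 tumour-gated cells in the Mfn2 library (exact 95% interval 9.59% to 11.2%), 12.2% of 5242 in the Rhot1 library (11.3% to 13.1%) and 6.85% of 4320 in WT (6.12% to 7.65%). The intervals of the mutant hosts lay above that of WT, but with 1 pooled library per genotype the spread between mice is unknown. With cells chosen by Pthlh and Etv1 alone, the shares were 11.4%, 9.79% and 8.59% (Mfn2, Rhot1, WT). There the Rhot1 interval (8.995% to 10.6%) overlapped that of WT (7.77% to 9.46%), while the Mfn2 interval lay above it. With cells chosen by Dkk2 and Etv1, or by Pthlh and Dkk2, both mutant hosts' intervals lay above WT. The libraries also differed in cluster make-up: cluster 1 was 25.3%, 23.04% and 6.57% of tumour-gated cells. Given the pooled cluster mix, the shares of members by all 3 genes were 9.83%, 11.6% and 7.67%. Of the 6 clusters with at least 30 members, the share was above WT in 5 for the Mfn2 library and in 4 for the Rhot1 library. Both fell below WT in cluster 5, led by Il33, Pgf and Adm, where members were 10.7% and 19.9% of cells against 21.7% in WT. The Rhot1 library was also below WT in cluster 7, led by Mme and Lum, where it had 31 cells.

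Over all tumour-gated cells, Dkk2 stood at 146, 179 and 103 CPM in the Mfn2, Rhot1 and WT libraries, Pthlh at 88.2, 82.8 and 64.8, and Etv1 at 172, 155 and 154. Exact 95% intervals for counting error were 144 to 149, 176 to 181 and 101 to 106 for Dkk2. The intervals of Dkk2 and Pthlh in both mutant hosts' libraries lay above those of the WT library, which covers counting error and not the spread between hosts, while Etv1 in the Rhot1 library (153 to 158) overlapped with WT (152 to 157). Ptprc-positive cells with a Dkk2 UMI were also most frequent in the Rhot1 library, at 4.93% and 8.31% in the Mfn2 and Rhot1 libraries and 4.01% in WT, and their part in this was not tested.

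Within members, the hosts differed in genes other than the 3. Different clusters held most members: cluster 1 held 49.9% of Mfn2 and 44.5% of Rhot1 members but 13.9% of WT members, of which cluster 5 held 35.5%. At a log2 ratio of 0.5 (with 5 CPM added), 160 of 8126 genes were higher (1.97%) and 170 lower (2.09%) in Mfn2 than in WT members, and 223 of 8172 were higher (2.73%) and 173 lower (2.12%) in Rhot1 than in WT members. With median-of-ratios scaling the counts were 120 higher and 198 lower for Mfn2, and 136 higher and 227 lower for Rhot1. Both ratios share the WT library. There is no test of these values, and intervals cover counting error only.

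Prxl2a was highest in both mutant hosts, at 721 and 595 CPM in Mfn2 and Rhot1 members against 260 in WT members, ratios of 2.78 (2.62 to 2.94) and 2.29 (2.16 to 2.43). The ratios in other tumour cells were 4.20 and 2.85. Within cluster 1 they were 1.87 and 1.68, and within cluster 5, 3.23 and 2.70. Rcan1 had ratios of 1.95 and 1.74 in members, against 1.501 and 1.14 in other tumour cells, and 2.41 and 2.24 within cluster 1. Cpe, the prohormone-processing carboxypeptidase E, had 1.90 and 1.74. In Mfn2 members the glutathione transferases Gsta4 (1.99) and Mgst3 (1.84) and xanthine dehydrogenase, Xdh (1.86), completed the 6 highest. In Rhot1 members they were the N-myristoyltransferase Nmt2 (1.82), the replication helicase subunit Mcm7 (1.79) and the nucleolar protein Nifk (1.73).

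The 6 named genes lowest against WT were the same for both mutant hosts, whose ratios share the 1 WT library. Il33 stood at 25.3 and 14.1 CPM in Mfn2 and Rhot1 members, against 181 in WT members, ratios of 0.140 (0.120 to 0.162) and 0.0778 (0.0649 to 0.0926). Its receptor gene Il1rl1 had ratios of 0.278 and 0.276, against 0.569 and 0.540 in other tumour cells. Lum had 0.170 and 0.282, Dcn 0.343 and 0.356, Mmp3 0.282 and 0.327, and the collagen VI chain Col6a3 0.266 and 0.287. Some of these UMIs came from few cells. In Mfn2 members, Lum was found in 71 of 559 cells and Il33 in 78, against 153 and 118 of 296 in WT members. There 1 Mfn2 cell held 20.1% of Mmp3 UMIs and 1 held 18.8% of Il33 UMIs. Without the cell with most UMIs in each library, 2 named Mfn2 ratios moved and 10 did not, nor did the 12 of Rhot1. The host differences were not the same in every cluster. Within cluster 5, Il33 ratios were 0.280 and 0.214 and Lum ratios 0.0947 and 0.289. Within cluster 1, Il33 was at 21.2 and 11.7 CPM, against 3.20 in WT from 2 UMIs, ratios of 6.62 (1.78 to 55.5) and 3.67 (0.967 to 31.1). Within cluster 6, Mmp3 ratios were 2.17 and 2.54, and Lum ratios 0.978 and 1.17. Col6a3 was below WT in all 4 clusters compared, at 0.171 to 0.647 for Mfn2 and 0.253 to 0.733 for Rhot1, and Dcn at 0.199 to 0.834 and 0.221 to 0.915.

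**Figure D5:**
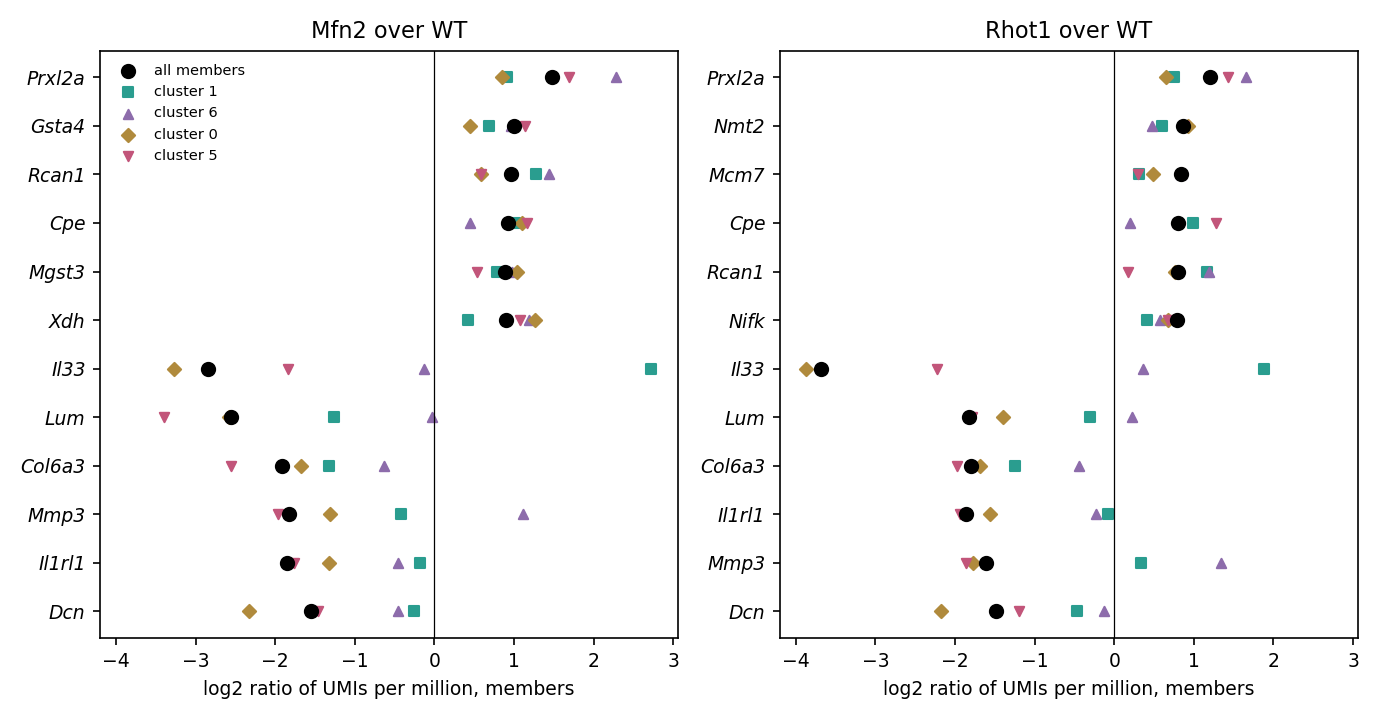
Log2 ratio of CPM, Mfn2 over WT (left) and Rhot1 over WT (right), for the 6 highest and 6 lowest named genes in all members (black circles) and in members of clusters 1, 6, 0 and 5. Genes above 0 in all members stay above 0 in each cluster shown, whereas Il33 and Mmp3 fall on either side of 0, as does Lum for Rhot1.

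By list, the genes that signal to bone had 1 of 16 past the ratio above WT and 7 below in Mfn2 members, and 1 and 8 in Rhot1 members, with median log2 ratios of -0.40 and -0.49. In other tumour cells the medians were -0.31 and -0.49. Il11 was the gene above WT in both. Mesenchymal genes had 9 and 10 of 22 below WT. S-phase genes had 0 of 32 past the ratio in Mfn2 members and 12 of 35 above WT in Rhot1 members, with medians of 0.24 and 0.45, against 0.01 and 0.15 in other tumour cells. The share of members without cycle UMIs was 45.8% and 39.7% in the Mfn2 and Rhot1 libraries and 52.4% in WT, and its part in this was not tested. The PTHrP regulators had 0 of 12 and the ETS factors 0 of 11 past the ratio in either host. Over all genes, 1.97% were higher and 2.09% lower in Mfn2 members, and 2.73% and 2.12% in Rhot1 members. Counts of 0 in lists of this size are near those shares. The median log2 ratios over all genes were 0.03 and 0.07.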

How the data were processed

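Live cells from 3 pooled tumour libraries were profiled by droplet 3' RNA sequencing. The deposited matrices hold raw UMI counts per gene and cell, made by the authors with Cell Ranger 7.0.0, per the file headers, on mm10, per the submitters' processing notes. Doublet handling before deposit is not given in the sources used here.

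Cells were filtered, gated and scored as the report states. The members, gene lists and tests were chosen with earlier results of these data known. UMI counts were summed per library and class (6 sums, 2 residual degrees of freedom) and tested with edgeR 4.0.16 in R 4.3.3 (quasi-likelihood, TMM scaling, library as covariate, genes with a mean of at least 5 CPM), with Benjamini-Hochberg adjustment over all genes tested. The procedure was tested on simulated data. Named genes were the 14 highest and 10 lowest log2 folds among called genes of 1 sign in all 3 libraries at a mean of at least 50 CPM, without genes used in the choice, mitochondrial, ribosomal, haemoglobin, immunoglobulin and unnamed genes. Of each list the 2 highest and 2 lowest members were also named, and other list genes in the text were chosen after their values were seen. For host ratios within members the 6 highest and 6 lowest log2 ratios (5 CPM added) were named under the same exclusions, without genes over 2 times higher outside the tumour gate. Dkk2-led and Etv1-led members were compared after seeing the data.

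Tumour-gated cells were clustered with scanpy 1.11.5 and leidenalg 0.10.2 (2000 variable genes without Pthlh, Dkk2 and Etv1, 30 components, 15 neighbours, resolution 0.6). Shares have exact Clopper-Pearson and levels exact Poisson 95% intervals, which cover counting error only. Alternatives were DESeq2 1.42.0, other scalings, filters, score and gate settings, each library left out, and restrictions of the cells chosen after seeing the data.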

Additional observations from a re-analysis of the deposited data

Results flagged for a closer look

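Col6a3, a collagen VI chain, differed in direction between hosts. Its log2 ratio of members over other tumour cells was -0.17 (Mfn2) and -0.34 (Rhot1), against 0.27 in WT. Adm, the gene of adrenomedullin, had -0.46 and -0.14 in the Mfn2 and Rhot1 libraries, against 0.41 in WT. The chemokine gene Ccl5 had 0.44 in the Rhot1 library, against -1.21 in WT. Each genotype has 1 library, so these differences between hosts were not tested.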

How the results depend on the processing

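No paired analysis was possible because, between hosts, each genotype has 1 library and the labels give no shared replicate numbers. Members and other tumour cells were compared within libraries, and without the library term 466 genes were higher and 318 lower. In the 9 alternatives run for each gene read outside its own choice of cells, all kept direction and stayed past the threshold; with each library left out the log2 folds were 1.38 to 1.44 (Pthlh), 1.29 to 1.41 (Dkk2) and 0.98 to 1.05 (Etv1). Genes higher in members (564) came to 301 at a mean of 20 CPM and 352 in cells without cycle UMIs, and to 557 to 643 with a library left out. Genes lower (358) came to 175 with the score on thinned cells, 224 with the top 20%, 784 without a filter, 169 at 20 CPM, 119 in cells without cycle UMIs, and 342 to 425 with a library left out. Member shares in the Mfn2, Rhot1 and WT libraries were 12.6%, 14.0% and 8.47% on thinned cells, 5.02%, 6.58% and 3.08% for the top 5%, and 21.4%, 23.03% and 14.6% for the top 20%. Genes higher past the ratio in Rhot1 over WT members (223) came to 136 with median-of-ratios scaling. Dkk2-led over Etv1-led counts (8 and 8) were 13 to 24 and 13 to 29 with a library left out. Reversed were the epithelial median of 1 gene (0.32 without WT, against -0.11, and -0.13 to 0.32 over the libraries left out), the AP-1 (-0.019) and NF-kB (-0.056) medians and H2ac24 (0.16) in cells without cycle UMIs. Log2 host ratios reversed in cluster 1 for Il33 (2.73 Mfn2, 1.88 Rhot1) and Mmp3 (0.34 Rhot1), and in cluster 6 for Mmp3 (1.12 Mfn2, 1.35 Rhot1), Il33 (0.36 Rhot1) and Lum (0.23 Rhot1). The epithelial median has no value at 20 CPM, where no gene was left. The cause was not tested in any of these. Depth limits scarce genes such as Pth1r and Axin2, which could not be tested.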
